A study of Mus musculus with 24 samples.

Results

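The insulin-like growth factor (IGF) genes measured here were Igf1, its receptor Igf1r, 6 IGF-binding proteins (Igfbp2, Igfbp3, Igfbp4, Igfbp5, Igfbp6 and Igfbp7) and the IGF2 mRNA-binding proteins Igf2bp1 and Igf2bp3. They were taken by symbol from the gene count table and made up 10 of its 52178 genes. All 10 passed the filter on low counts, which kept 21283 genes. Hip caps, the articular cartilage of the femoral head, were from male C57/BL6 mice (C57/BL6J in the study's methods) aged 4 weeks, with 2 caps per library, and metatarsals, which hold growth plate cartilage, came from embryonic day 15 (E15) C57/BL6 embryos, with 6 per library. After 24 hours of culture each tissue spent 1 hour at 5 MPa, which the study calls physiological, at 50 MPa, which it calls injurious, or at no added pressure (0 MPa, control). RNA was taken after 24 hours more, and each of the 6 groups held 4 libraries. The animals carried no transgene or deletion according to the labels, and the controls went through the same culture. Age, sex, culture medium and anatomical site all differed between the tissues and cannot be told apart from one another. The sex of the embryos is not labelled, but the study lists the female-expressed Xist among the genes most strongly lower in the male hip caps.

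IGF1 and IGF2 are secreted growth factors that drive the growth of cartilage and bone, and both signal mainly through the tyrosine kinase receptor IGF1R. IGF-binding proteins hold the ligands in the matrix and in body fluids, and proteases such as pappalysins release the ligands by cutting the binding proteins. IGF2BP1 and IGF2BP3 are unrelated to these binding proteins: they bind mRNAs, among them that of Igf2, and are known as oncofetal proteins because most tissues lose them after birth.

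Levels are given as CPM, counts relative to the library total after TMM normalization, and differences as log2 fold changes with their standard errors (SE) from a single edgeR fit of 22 libraries that had terms for batch, namely the sequencing run and whether the library was stranded. The study left out 1 hip cap control (replicate 4) and 1 hip cap library at 50 MPa (replicate 2), and their values are named where given. Total counts ranged from 4185557 to 25104484 per library. All 4 hip cap libraries at 5 MPa were from run 2 and all 3 fitted hip cap controls from run 1. Run and pressure therefore cannot be told apart within the hip caps at 5 MPa. All 3 fitted hip cap libraries at 50 MPa were unstranded, as was only control replicate 3 among the fitted hip cap controls. At 5 MPa the 4 hip cap and 4 metatarsal libraries shared one run and one library type. The assignment of libraries to runs came from the colour strip of the study's clustering figure and is uncertain. It gives 9 libraries in run 1 and 15 in run 2, which differs from the numbers per sequencing kit in the study's methods. The run term of the fit and the comparison within a single run rest on it. The labelled tissues differed in their markers as follows. The summed level of 10 chondrocyte markers was 43819 to 71019 CPM in hip cap controls and 1508 to 3993 CPM in control metatarsals, with none at 0 in any library of either tissue. The sum of 8 skeletal muscle markers was 8.41 to 12.7 CPM in hip cap controls and 1012 to 2478 CPM in control metatarsals. That of 8 tendon and perichondrial fibroblast markers was 1896 to 2735 and 4815 to 6918 CPM. Osteoblast markers, 6 in number, were higher in hip caps, with a sum of 1637 to 2907 CPM in controls against 93.5 to 254 CPM in control metatarsals. The part of these other cells in the results was not tested, and in such bulk samples fewer cells of a type and less RNA per cell cannot be told apart.

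**Figure D1:**
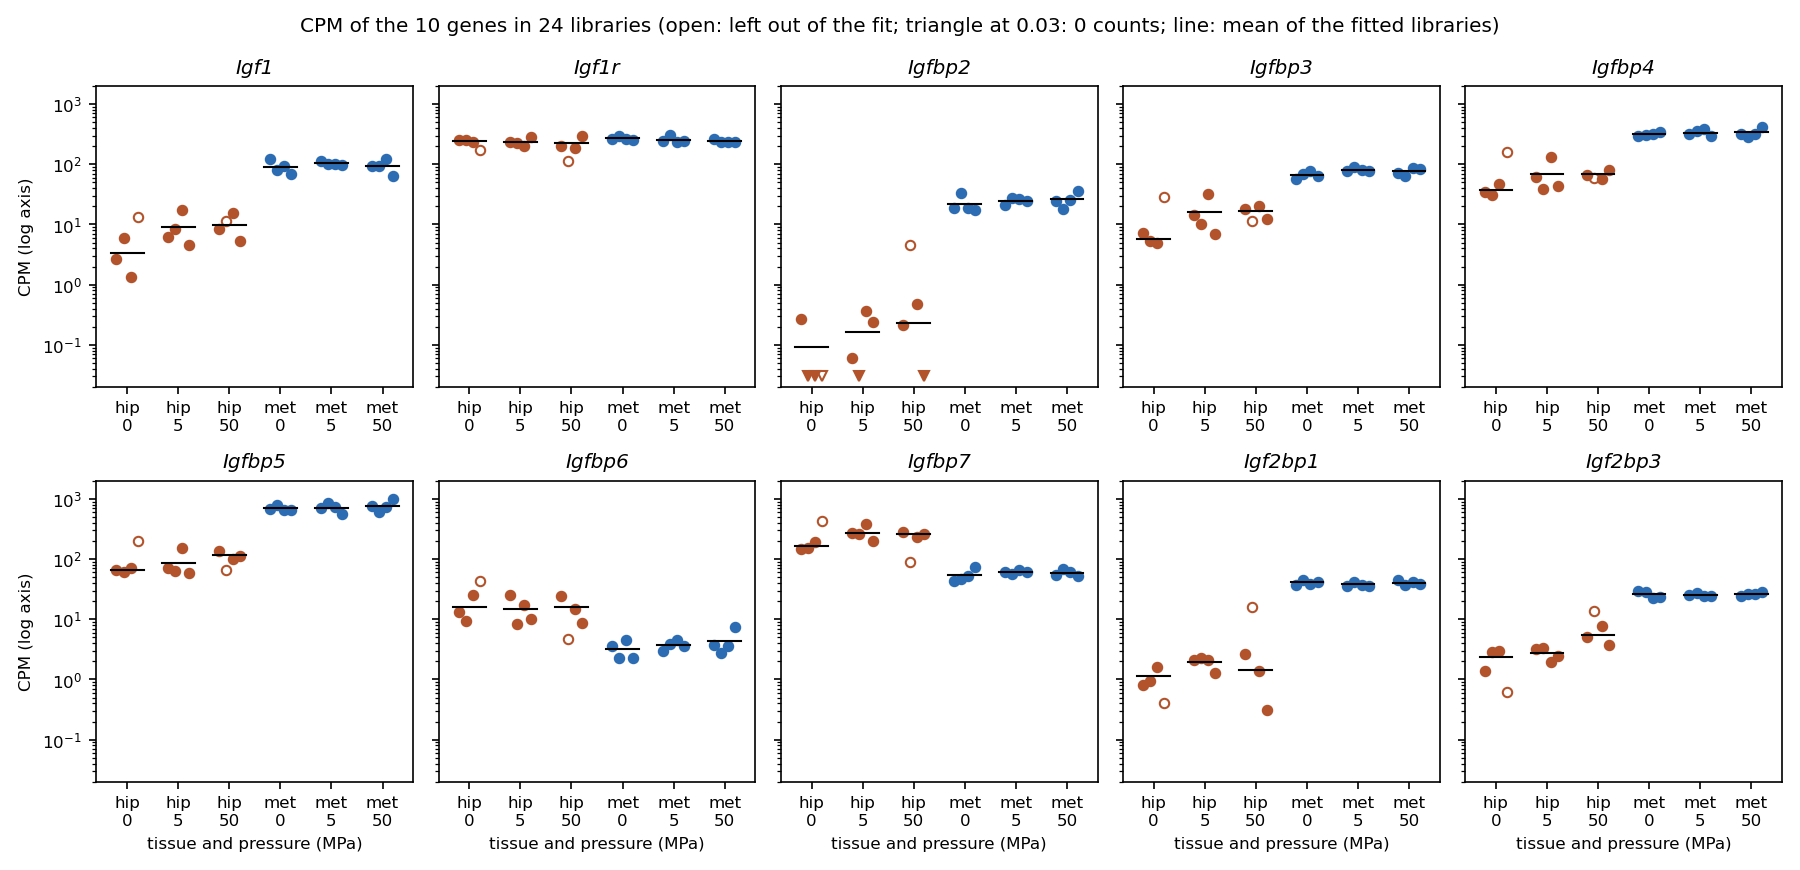
CPM (log axis) of each of the 10 genes in every library, by tissue (brown, hip caps, blue, metatarsals) and pressure in MPa. Open symbols are the 2 libraries left out of the fit, triangles are libraries with 0 counts and lines are means of the fitted libraries. Igf1, Igfbp2, Igfbp3, Igfbp4, Igfbp5, Igf2bp1 and Igf2bp3 lie lower in every hip cap library than in any metatarsal library, Igfbp7 lies higher, and Igf1r lies between 111 and 309 CPM throughout.

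Between the unpressurised tissues, hip caps had less Igf1, Igfbp2, Igfbp3, Igfbp4, Igfbp5, Igf2bp1 and Igf2bp3 and more Igfbp6 and Igfbp7 than metatarsals, while Igf1r did not pass the test. Thus 9 of the 10 genes passed an adjusted p-value of 0.05 (edgeR, Benjamini-Hochberg over all genes), with 2 up and 7 down in hip caps, beside 29.9% of all genes tested (14.1% up and 15.9% down). Their median log2 fold change was -3.50, against -0.08 over all genes. The values of all 10 genes did not overlap between the tissues, which held for 42.4% of all genes.

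Among the ligands, Igf1 was measured at 2.71, 6.04 and 1.33 CPM in the 3 fitted hip cap controls and at 124, 80.3, 93.6 and 68.3 CPM in the 4 control metatarsals. Every hip cap control lay far below every metatarsal. The log2 fold change was -4.91 ± 0.52 (SE, adjusted p = 1.93e-06). The hip cap control that was left out had 13.5 CPM, above the other 3 and still below all metatarsals.

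The receptor Igf1r was at 252, 251 and 234 CPM in hip cap controls and at 265, 290, 264 and 257 CPM in control metatarsals. The ranges lay side by side without overlap, and the difference was small, with a log2 fold change of -0.10 ± 0.21 (SE, adjusted p = 0.765). When CPM were scaled by total counts without TMM, which moved the median of all genes to -0.97, Igf1r was at -1.02 and passed the threshold.

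Igfbp2, a binding protein with higher affinity for IGF2 than for IGF1, was nearly undetected in hip caps. It had 1, 0 and 0 counts in the fitted hip cap controls and 0 in the one left out, against 100, 628, 325 and 229 counts, or 19.1, 33.5, 18.6 and 17.7 CPM, in control metatarsals. Pooled over libraries, the metatarsal level was 483 times the hip cap level with a 95% counting interval of 86.5 to 19074, which covers counting error only. The fitted value of -8.87 depends on the prior count (adjusted p = 3.92e-08). At 5 MPa the pooled ratio was 134 (interval 78.5 to 253) from 13 hip cap counts, and at 50 MPa it was 75.2 (39.5 to 165) from 9.

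Igfbp5, which binds to extracellular matrix and is stored in bone, was at 65.9, 60.4 and 70.2 CPM in hip cap controls. Control metatarsals had 693, 803, 659 and 652 CPM. No library came near the other tissue, and the log2 fold change was -3.59 ± 0.32 (SE, adjusted p = 5.86e-08). Igfbp2 and Igfbp5 are neighbours, lying tail to tail on mouse chromosome 1 with 5.458 kb and 0 annotated genes between them (GRCm38).

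Their promoters, from 250 bases before to 50 after the transcription start, are shown because this pair of neighbours was lower together in hip caps. They are RefSeq sequences of GRCm38.p6, not of the GRCm39 build that the submitters name, and capitals mark each match of the TATA box (TATAAA), the GC box (GGGCGG) or the CCAAT box (its letters are its name) on either strand.
Igfbp2 promoter, chr1:72824230-72824529, plus strand: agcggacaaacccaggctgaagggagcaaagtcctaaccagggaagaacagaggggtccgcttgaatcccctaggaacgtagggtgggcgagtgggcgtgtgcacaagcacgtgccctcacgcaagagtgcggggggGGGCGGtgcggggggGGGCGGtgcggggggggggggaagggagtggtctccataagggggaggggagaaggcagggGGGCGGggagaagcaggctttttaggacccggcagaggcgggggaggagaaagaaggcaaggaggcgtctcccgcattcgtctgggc
Igfbp5 promoter, chr1:72874816-72875115, minus strand: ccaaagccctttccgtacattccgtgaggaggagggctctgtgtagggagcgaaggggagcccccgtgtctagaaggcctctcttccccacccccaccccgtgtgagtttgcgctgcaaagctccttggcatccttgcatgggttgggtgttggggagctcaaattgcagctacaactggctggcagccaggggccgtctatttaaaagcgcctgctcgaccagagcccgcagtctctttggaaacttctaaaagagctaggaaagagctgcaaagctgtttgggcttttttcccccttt
The Igfbp2 window held 3 GGGCGG matches and 18 CpG sites, and the Igfbp5 window held 0 matches of the 3 motifs and 10 CpG sites. Of 32851 mouse promoters of this length, 35.7% held GGGCGG, 13.6% TATAAA and 37.4% CCAAT, and the median number of CpG sites was 7. A match of letters is a description only.

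Igfbp4, an inhibitor of IGF signalling that the protease PAPP-A cuts, was at 35.3, 30.3 and 47.4 CPM in hip cap controls. It was at 299, 307, 321 and 344 CPM in control metatarsals, which varied little among themselves. The log2 fold change was -3.20 ± 0.36 (SE, adjusted p = 1.41e-06).

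Igfbp3, the main carrier of IGFs in blood, was at 7.33, 5.24 and 4.95 CPM in hip cap controls and at 56.6, 68.6, 77.0 and 63.8 CPM in control metatarsals. The groups were well apart, with a log2 fold change of -3.50 ± 0.49 (SE, adjusted p = 3.83e-05). Its neighbour Igfbp1, 3.54 kb away, had 0 CPM in both control groups.

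Igfbp7, a low-affinity relative of the IGF-binding proteins, was higher in hip caps. It was at 147, 154 and 191 CPM in hip cap controls and at 43.0, 46.7, 51.7 and 74.1 CPM in control metatarsals. The lowest hip cap was above the highest metatarsal, and the log2 fold change was 1.86 ± 0.25 (SE, adjusted p = 8.19e-06).

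Igfbp6, which prefers IGF2 as its ligand, was also higher, but at a low level. It was at 13.3, 9.21 and 25.2 CPM in hip cap controls and at 3.63, 2.30, 4.45 and 2.31 CPM in control metatarsals. The hip caps were all higher and spread widely, and the log2 fold change was 1.73 ± 0.51 (SE, adjusted p = 0.0149). The call was lost on total counts without TMM (0.85, adjusted p = 0.211), and without hip cap control replicate 3, control metatarsal replicate 1 or metatarsal replicate 4 at 50 MPa.

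The promoters of these 2 genes are shown, in the same way, as the pair that was higher in hip caps.
Igfbp7 promoter, chr5:77407996-77408295, minus strand: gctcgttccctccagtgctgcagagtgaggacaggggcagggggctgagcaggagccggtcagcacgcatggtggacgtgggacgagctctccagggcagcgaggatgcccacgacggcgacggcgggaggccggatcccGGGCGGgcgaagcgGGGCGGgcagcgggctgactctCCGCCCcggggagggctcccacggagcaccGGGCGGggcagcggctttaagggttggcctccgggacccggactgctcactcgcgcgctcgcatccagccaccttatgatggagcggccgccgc
Igfbp6 promoter, chr15:102143936-102144235, plus strand: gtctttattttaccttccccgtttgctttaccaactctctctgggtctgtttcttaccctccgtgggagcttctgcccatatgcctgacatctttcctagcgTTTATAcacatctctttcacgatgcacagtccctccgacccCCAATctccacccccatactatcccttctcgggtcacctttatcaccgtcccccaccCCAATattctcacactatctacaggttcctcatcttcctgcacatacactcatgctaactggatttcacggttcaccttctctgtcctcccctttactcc
The Igfbp7 window held 4 GGGCGG matches and 33 CpG sites. The Igfbp6 window, whose RefSeq start lies 176 bases from the GENCODE gene start, held 1 TATAAA and 2 CCAAT matches and 8 CpG sites. The 4 windows thus differed in these features within each pair as well as between the pairs.

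The mRNA-binding proteins were both lower in hip caps. Igf2bp1 had 3, 6 and 17 counts in hip cap controls, or 0.814, 0.953 and 1.62 CPM, and 36.9, 45.5, 39.2 and 42.4 CPM in control metatarsals. It was close to the detection limit in hip caps and uniform in metatarsals, with a log2 fold change of -4.99 ± 0.33 (SE, adjusted p = 8.73e-10). Igf2bp3 was at 1.36, 2.86 and 2.95 CPM in hip cap controls and at 29.6, 28.2, 22.3 and 23.6 CPM in control metatarsals. The groups were about as far apart as for Igfbp3, with a log2 fold change of -3.49 ± 0.28 (SE, adjusted p = 1.28e-08). Igf2bp3 overlaps Malsu1 on the other strand, and 18.6% of its 31-base words occur in another gene, so its counts are uncertain, most of all in the 6 unstranded libraries. Malsu1 itself differed by -0.36 ± 0.26 (SE, adjusted p = 0.328). For Igfbp7 this share was 4.57% (most with Polr2b on the other strand), for Igfbp4 it was 6.18%, and for the other 7 genes it was at most 0.972%.

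The oncofetal genes Igf2bp1 and Igf2bp3 are textbook targets of the let-7 microRNAs, which rise late in development and whose maturation LIN28B blocks. The mature let-7a sequence (RefSeq, mouse) is shown with its seed, bases 2 to 8, in capitals, followed by the matches to that seed, CTACCTC, in the 3′UTRs of both genes (GENCODE M21, the transcript with the longest coding part), with the match in capitals.
let-7a-5p: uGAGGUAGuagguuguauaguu
Igf2bp1, site at 3′UTR position 1715: tgcgaagtaaaCTACCTCaag
Igf2bp1, site at 3′UTR position 4136: agtgctattaaCTACCTCagc
Igf2bp1, site at 3′UTR position 4730: aaatggatgaaCTACCTCagt
Igf2bp1, site at 3′UTR position 5353: ttggttttaatCTACCTCtta
Igf2bp3, site at 3′UTR position 548: tttttactcaaCTACCTCagg
The 3′UTR of Igf2bp1 held 4 matches in 6337 bases and that of Igf2bp3 held 1 in 2119 bases. In the transcripts chosen in this way, Igf1r held 2, Igfbp5 held 1 and the other 6 genes held 0. For Igf1 that transcript had a 3′UTR of only 453 bases, and its other annotated transcripts were not searched. At least 1 match was found in 7.99% of 20619 genes with a 3′UTR, in 36.7% of the 640 with a 3′UTR of 5000 bases or more and in 11.2% of the 6608 with one of 1000 to under 3000 bases. The microRNAs themselves were not measured here.

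Compared per length (CPM per kb of that transcript, mean of the fitted controls), the order of the genes differed between the tissues. In control metatarsals Igfbp5 led with 117, followed by Igfbp4 with 82.9, Igfbp7 with 44.9 and Igf1 with 40.0 CPM per kb. Below them came Igfbp3 with 27.5, Igf1r with 23.6, Igfbp2 with 17.0, Igf2bp3 with 5.97, Igf2bp1 with 4.89 and Igfbp6 with 2.85 CPM per kb. Igfbp5, Igfbp4 and Igfbp6 did not overlap with their neighbours in this order, and each other pair of neighbours overlapped between libraries except Igfbp2 and Igf2bp3. In hip cap controls Igfbp7 led with 137 CPM per kb and overlapped with no other gene. Igf1r with 21.5, Igfbp6 with 14.3, Igfbp5 with 10.9 and Igfbp4 with 9.83 CPM per kb followed, and each overlapped with the next. Igfbp3 with 2.41, Igf1 with 1.47 and Igf2bp3 with 0.55 CPM per kb were lower again, and Igf2bp1 with 0.135 and Igfbp2 with 0.0692 CPM per kb were the lowest. The 1 transcript chosen per gene sets the length, so these levels are approximate. This matters most for Igf1, whose chosen transcript had 2292 bases while all its annotated transcripts held 9880 different 31-base words. A longer transcript would lower its level per kb, so its place in the order is uncertain.

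The difference between the tissues was then compared under pressure. At 5 MPa the same directions were seen: 2 of the 10 were up in hip caps and 7 down, beside 37.9% of all genes called (18.8% up and 19.1% down), and 9 did not overlap, beside 40.8% of all genes. In the 8 libraries of one run and library type alone, again 2 were up and 7 down, beside 43.7% of the 19020 genes tested (23.5% up and 20.2% down). There Igf1 was at 6.24, 8.49, 17.1 and 4.49 CPM in hip caps and at 111, 103, 103 and 98.8 CPM in metatarsals, a log2 fold change of -3.47 ± 0.38 (SE, adjusted p = 0.000153). The hip caps spread widely and the metatarsals hardly at all. In the same libraries Igfbp5 differed by -3.01 ± 0.32, Igfbp7 by 2.21 ± 0.18, Igfbp6 by 2.07 ± 0.34 and Igf2bp1 by -4.25 ± 0.17 (SE), and Igf1r by -0.08 ± 0.14.

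At 50 MPa 1 of the 10 was up in hip caps and 7 were down, beside 19.7% of all genes (10.2% up and 9.57% down), and 9 did not overlap, beside 39.8% of all genes. Igfbp6 no longer passed, with 24.3, 14.7 and 8.65 CPM in hip caps, 3.70, 2.71, 3.66 and 7.53 CPM in metatarsals and a log2 fold change of 1.06 ± 0.51 (SE, adjusted p = 0.162). Its values still did not overlap. The difference of Igf1 was -2.56 ± 0.48 and that of Igfbp3 -2.12 ± 0.46 (SE). Without metatarsal replicate 4 at 50 MPa, the unstranded one, the count fell to 5, and Igf1, Igfbp2 and Igfbp3 lost the call. The comparisons at the 3 pressures share the batch terms of one fit.

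**Figure D2:**
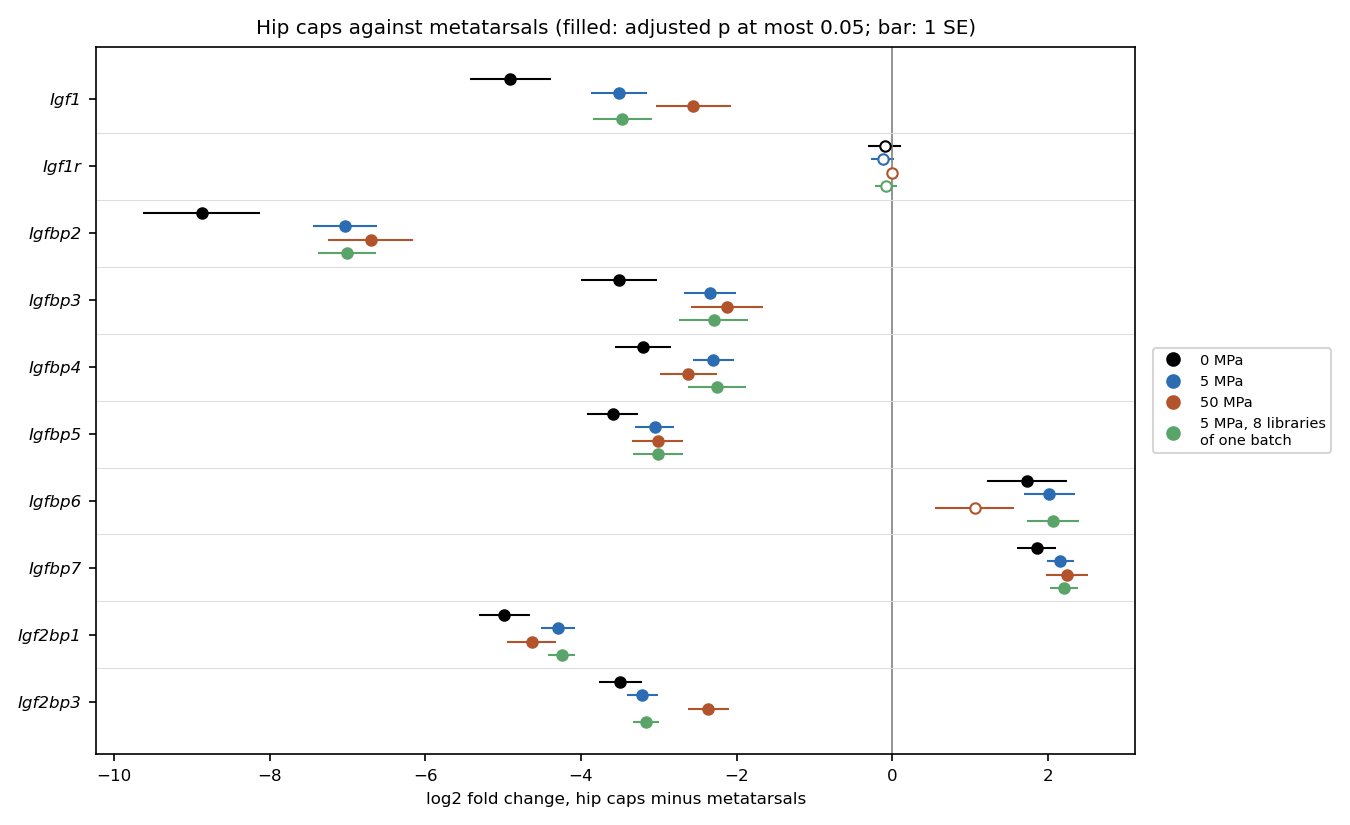
Log2 fold change (hip caps minus metatarsals) of the 10 genes at each pressure, with bars of 1 SE and filled points for an adjusted p of at most 0.05. Green points use the 8 libraries at 5 MPa of one run and library type alone. Igfbp6 and Igfbp7 lie right of 0, Igf1r lies at 0 and the other 7 lie left of it, and Igfbp6 at 50 MPa (1.06) is open.

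Hydrostatic pressure was next compared with control within each tissue. In hip caps at 5 MPa 0 of the 10 genes passed (edgeR), beside 0.0188% of all genes, while 3 (Igf1, Igfbp3 and Igfbp4) had an unadjusted p under 0.05, as did 14.8% of all genes, and DESeq2 called 1, Igf1. Igf1 was at 6.24, 8.49, 17.1 and 4.49 CPM, against 1.33 to 6.04 CPM in the controls. Its groups overlapped, and the log2 fold change was 1.78 ± 0.59 (SE, adjusted p = 0.191). Igfbp7 was at 269, 258, 377 and 199 CPM, all above the 3 fitted controls, with a log2 fold change of 0.39 ± 0.27 (SE, adjusted p = 0.496). It was the only 1 of the 10 whose groups did not overlap, which held for 16.2% of all genes. The hip cap library with replicate number 3 stood apart at 5 MPa, with Igf1 at 17.1, Igfbp3 at 32.2, Igfbp4 at 131 and Igfbp5 at 153 CPM, the highest of its group for each. Its fibroblast marker sum was 7016 CPM (2060 to 3628 in the other 3), its macrophage marker sum 213 CPM (52.6 to 94.2) and its chondrocyte marker sum 20304 CPM (33227 to 48448). Without it the log2 fold change was 1.34 for Igf1, 0.89 for Igfbp3, 0.52 for Igfbp4 and 0.25 for Igfbp5. The hip cap control that was left out had the fibroblast and macrophage sums at 4585 and 307 CPM. Its chondrocyte sum was 8497 CPM, against 43819 to 71019 CPM in the fitted controls. It had Igfbp3 at 28.2, Igfbp4 at 158, Igfbp5 at 201, Igfbp6 at 43.0 and Igfbp7 at 438 CPM, each above the other 3 controls. With all 24 libraries Igf1 was at 0.32 and the direction turned for Igfbp4 (-0.34), Igfbp5 (-0.48), Igfbp6 (-0.75) and Igfbp7 (-0.22). Some marker sums separated at 5 MPa beyond replicate 3. Every hip cap library at 5 MPa lay above the fitted controls for macrophage markers (52.6 to 213 against 27.1 to 45.1 CPM). The same held for muscle markers (13.3 to 26.9 against 8.41 to 12.7 CPM). The other marker sums overlapped with the controls, and the part of these cells was not tested.

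In hip caps at 50 MPa Igf1 and Igf2bp3 rose, so 2 of the 10 genes were higher and 0 lower, beside 5.17% of all genes called (3.32% higher and 1.86% lower). An unadjusted p under 0.05 was found for 3 of the 10, beside 22.6% of all genes. Igf1 was at 8.32, 15.7 and 5.25 CPM at 50 MPa against 2.71, 6.04 and 1.33 CPM in controls. The lowest library at 50 MPa lay below the highest control. The log2 fold change was 2.75 ± 0.63 (SE, adjusted p = 0.023). Without batch terms it was 1.67 ± 0.54 (SE, adjusted p = 0.0819). Igf2bp3 was at 5.16, 7.61 and 3.71 CPM against 1.36, 2.86 and 2.95 CPM, with no overlap, and its log2 fold change was 1.13 ± 0.31 (SE, adjusted p = 0.0423). Malsu1, on the other strand, differed by 0.09 ± 0.28 (SE) and lay above Igf2bp3, with means of 10.2 CPM in controls and 11.7 CPM at 50 MPa. All 3 fitted libraries at 50 MPa were unstranded, as was only replicate 3 of the fitted controls. For Igf2bp3 pressure and library type therefore cannot be fully told apart, and the part of reads from the other strand was not tested.

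Both calls were lost among the hip caps alone, where 0 genes of the whole table passed. There the log2 fold change was 2.94 ± 0.97 for Igf1 (SE, adjusted p = 0.423) and 0.96 ± 0.60 for Igf2bp3 (SE, adjusted p = 0.582). Both were also lost without control replicate 3 (adjusted p = 0.308 and 0.277), without hip cap replicate 3 at 50 MPa (2.16 and 0.75) and with all 24 libraries (1.88, adjusted p = 0.22, and 1.82, adjusted p = 0.148). Igf1 also lost the call without control metatarsal replicate 1 (2.92, adjusted p = 0.071) or metatarsal replicate 4 at 50 MPa (2.92, adjusted p = 0.0701), which Igf2bp3 did as well. Igf1 lost the call in 11 of 36 other settings and Igf2bp3 in 21 of 35. The adjusted p ran from 8.23e-05 to 0.437 for Igf1 and from 0.00448 to 0.582 for Igf2bp3, and neither gene changed direction.

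**Figure D3:**
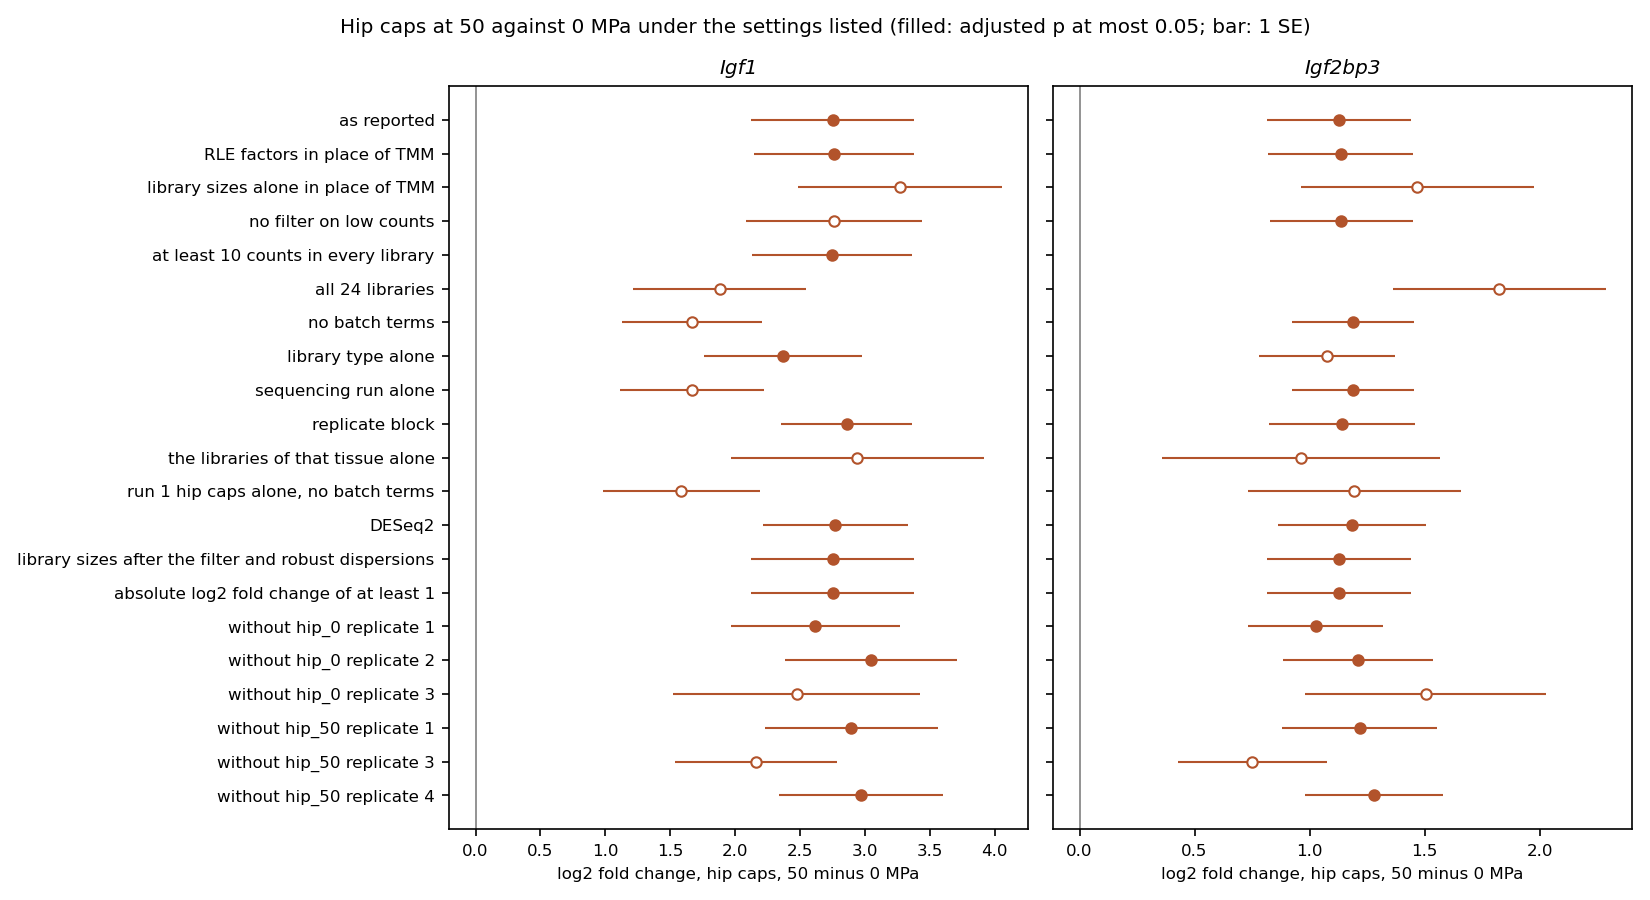
Log2 fold change of Igf1 (left) and Igf2bp3 (right) in hip caps, 50 against 0 MPa, as reported, under other settings and without each fitted hip cap library at 0 (hip_0) or 50 MPa (hip_50), with bars of 1 SE and filled points for an adjusted p of at most 0.05. Every point lies right of 0, and points among the hip caps alone or without replicate 3 of either group are open. Igf2bp3 has no point where at least 10 counts were required in every library.

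Among the other genes at 50 MPa, Igfbp3 was at 17.8, 20.6 and 12.4 CPM against 7.33, 5.24 and 4.95 CPM in controls, without overlap, and its log2 fold change was 1.58 ± 0.56 (SE, adjusted p = 0.102). DESeq2 called Igfbp3 (adjusted p = 0.0166) beside Igf1 and Igf2bp3. In edgeR Igfbp3 passed without batch terms (adjusted p = 0.0314), with the run term alone (0.0392) and without hip cap replicate 3 at 5 MPa (0.0101). Igfbp5 was at 137, 99.5 and 111 CPM, also above the fitted controls, with 0.63 ± 0.36 (SE, adjusted p = 0.305). Among the fitted libraries 5 of the 10 genes did not overlap (Igfbp3, Igfbp4, Igfbp5, Igfbp7 and Igf2bp3), all higher at 50 MPa. This was beside 15.8% of all genes without overlap and 8.19% higher without overlap. The hip cap control that was left out had Igfbp3 at 28.2, Igfbp4 at 158, Igfbp5 at 201 and Igfbp7 at 438 CPM. Each of these values lay above every hip cap library at 50 MPa, so with that control the groups of these genes overlapped. The hip cap library at 50 MPa that was left out stood apart, with Igfbp2 at 4.54 CPM (30 counts), Igf2bp1 at 15.9 and Igf2bp3 at 13.6 CPM, each the highest of any hip cap, and Igf2 at 512 CPM against 61.8 to 111 CPM in the 3 fitted libraries. That left-out library had a chondrocyte marker sum of 12022 CPM, against 30045 to 33802 CPM in the fitted libraries at 50 MPa. Its muscle marker sum was 110 CPM, against 25.7 to 42.2 CPM. Among the fitted hip caps some marker sums separated between 50 and 0 MPa. Chondrocyte markers were lower, at 30045 to 33802 CPM at 50 MPa, as were osteoblast markers, at 934 to 1259 CPM (1637 to 2907 in controls). Muscle markers were higher, at 25.7 to 42.2 CPM, as were macrophage markers, at 79.1 to 98.9 CPM (27.1 to 45.1 in controls). The fibroblast sum overlapped with the controls, at 1717 to 2772 CPM. Sox9 and Comp were called lower and the muscle gene Ttn higher. Of the 8 fibroblast markers 1 was called higher (median log2 fold change 0.55), and of the 6 osteoblast markers 1 was called lower. The part of these cells in the higher Igf1 and Igf2bp3 was not tested.

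In metatarsals 0 of the 10 genes passed at either pressure (edgeR), 0 had an unadjusted p under 0.05 and DESeq2 called 0. No gene of the table passed at either pressure (0%), while 3.24% of all genes at 5 MPa and 3.89% at 50 MPa had an unadjusted p under 0.05 and DESeq2 called 19 and 13 genes. Igf1 had the largest difference of the 10, from 98.8 to 111 CPM at 5 MPa and from 64.2 to 124 CPM at 50 MPa, with log2 fold changes of 0.39 ± 0.34 and 0.40 ± 0.35 (SE). Igfbp5 was at 566 to 863 CPM at 5 MPa and at 604 to 992 CPM at 50 MPa, with 0.06 ± 0.24 and 0.05 ± 0.24 (SE). All values overlapped with the controls.

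**Figure D4:**
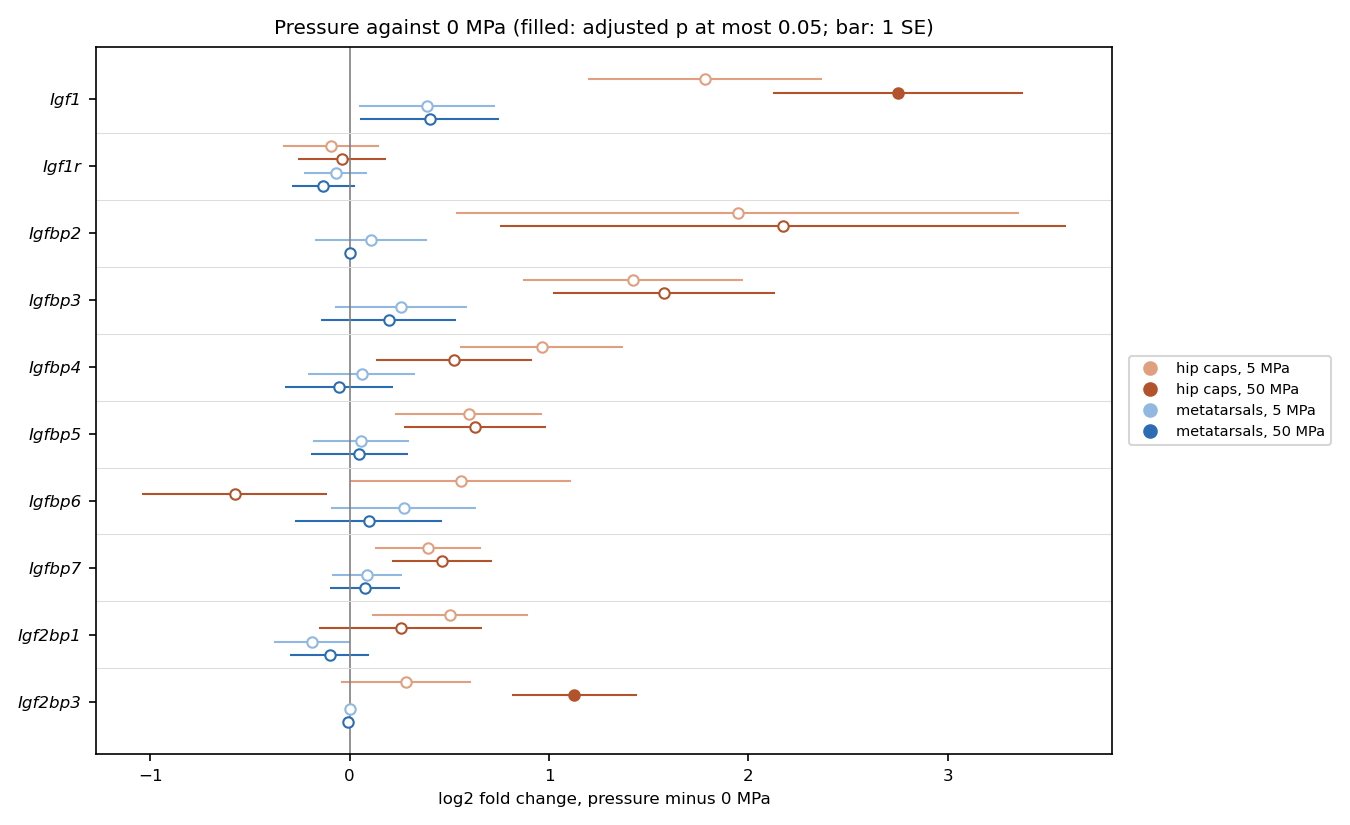
Log2 fold change of the 10 genes at 5 or 50 MPa against 0 MPa in hip caps (brown) and metatarsals (blue), with bars of 1 SE (not drawn for values within 0.02 of 0) and filled points for an adjusted p of at most 0.05. Only Igf1 and Igf2bp3 in hip caps at 50 MPa are filled, and all metatarsal points lie within 0.5 of 0.

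The difference between the tissues in their response was tested as an interaction. At 5 MPa 0 of the 10 genes passed (edgeR), beside 0.0188% of all genes, with 1 (Igf1) at an unadjusted p under 0.05, beside 11.2% of all genes, and 0 by DESeq2. At 50 MPa 0 passed, beside 0.132% of all genes, with 3 (Igf1, Igfbp3 and Igf2bp3) at an unadjusted p under 0.05, beside 18.3% of all genes, and 2 (Igf1 and Igf2bp3) by DESeq2. Igf1 differed by 2.35 ± 0.63 (SE, adjusted p = 0.081) and Igf2bp3 by 1.13 ± 0.33 (SE, adjusted p = 0.0912) more in hip caps than in metatarsals. The adjusted p of Igf1 ran from 0.00343 to 0.386 over the alternatives, on both sides of the threshold. The pressure comparisons share their controls with the tissue comparison.

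The other genes of the pathway were counted in the unpressurised tissues, beside the same 29.9% of all genes. Of the other ligands, receptors and binding proteins, 6 of 10 were tested, with 1 higher and 2 lower in hip caps. Igf2, the main fetal ligand, was at a mean of 47.0 CPM in hip cap controls (34.3 to 61.9) and 4042 CPM in control metatarsals (3361 to 4444), a log2 fold change of -6.33 ± 0.31 (SE, adjusted p = 6.22e-11). Igf2bp2, the third mRNA-binding protein of its family, was lower by a smaller factor, with 34.9 against 112 CPM on average and -1.65 ± 0.18 (SE, adjusted p = 5.26e-07). Igfals, which joins the complexes of IGF-binding proteins in blood, was higher at a very low level, with 1.45 against 0.198 CPM (adjusted p = 0.0451). Igf2r, which takes IGF2 up for breakdown, and the insulin receptor Insr did not pass (-0.28 ± 0.19 and -0.07 ± 0.15, SE).

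Of 12 genes for proteases that cut IGF-binding proteins and their inhibitors, 11 were tested, with 3 higher and 4 lower. Mmp3 (4.56 ± 0.65, SE), Ctsd (1.66 ± 0.24) and Htra1 (1.48 ± 0.23) were higher in hip caps. Stc1, an inhibitor of pappalysins, was lower, with 0.923 against 40.2 CPM on average and -5.45 ± 0.36 (SE, adjusted p = 8.41e-10), as were Mmp2 (-2.18 ± 0.30), Adam12 (-2.10 ± 0.51) and Adamts1 (-1.44 ± 0.24). Pappa, the protease of IGFBP4, did not pass, with 0.25 ± 0.38 (SE, adjusted p = 0.665). At 50 MPa Stc1 rose in hip caps, from 0.571 to 1.11 CPM in controls to 1.79 to 2.84 CPM (1.70 ± 0.46, SE, adjusted p = 0.0389). It stayed far below the metatarsals, and the call was lost among the hip caps alone, where 0 genes of the table passed.

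Of 36 adaptors and signalling genes downstream of IGF1R, 35 were tested, with 11 higher and 4 lower. Grb14, an adaptor that dampens signalling of this receptor family, had the largest difference, with a mean of 61.8 against 2.27 CPM and 4.59 ± 0.27 (SE, adjusted p = 2.27e-10). The receptor substrate Irs1 was at 411 against 101 CPM (2.09 ± 0.21, SE). The exchange factor Sos1 (-1.03 ± 0.21), the adaptor Shc1 (-0.85 ± 0.20) and the kinase Rps6kb1 (-0.79 ± 0.20, SE) were the lowest of those called. The median of this list was 0.02. At 50 MPa 4 of the 35 were called higher in hip caps, beside 5.17% of all genes, among them Rheb (0.65 ± 0.17), Rps6kb1 (0.97 ± 0.22) and Sos1 (0.92 ± 0.23, SE). Rheb did not overlap with the controls, and Rps6kb1 and Sos1 did. All 4 calls were lost among the hip caps alone, where 0 genes of the table passed.

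Of 8 genes of the growth hormone axis, all tested, 3 were higher and 3 lower. Socs2, a growth hormone target that restrains its receptor, was higher (1.44 ± 0.22, SE), as were Stat5b (0.85 ± 0.20) and Jak2 (0.74 ± 0.17). The receptor Ghr (-0.70 ± 0.23) and Socs1 (-2.01 ± 0.51, SE) were lower. Cish had 0 counts in the 3 fitted hip cap controls and a mean of 3.51 CPM in control metatarsals (adjusted p = 2.54e-05). Of 7 genes of the Lin28 and let-7 fetal programme, 6 were tested, with 0 higher and 3 lower. These were Igf2bp2, which is on this list too, the chromatin protein Hmga2 (-1.54 ± 0.43, SE, adjusted p = 0.0119) and Lin28b, with 0 counts in the hip cap controls and a mean of 1.11 CPM in control metatarsals (adjusted p = 0.00106). In metatarsals no gene of these lists passed at either pressure, and in hip caps at 5 MPa none did (edgeR).

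**Figure D5:**
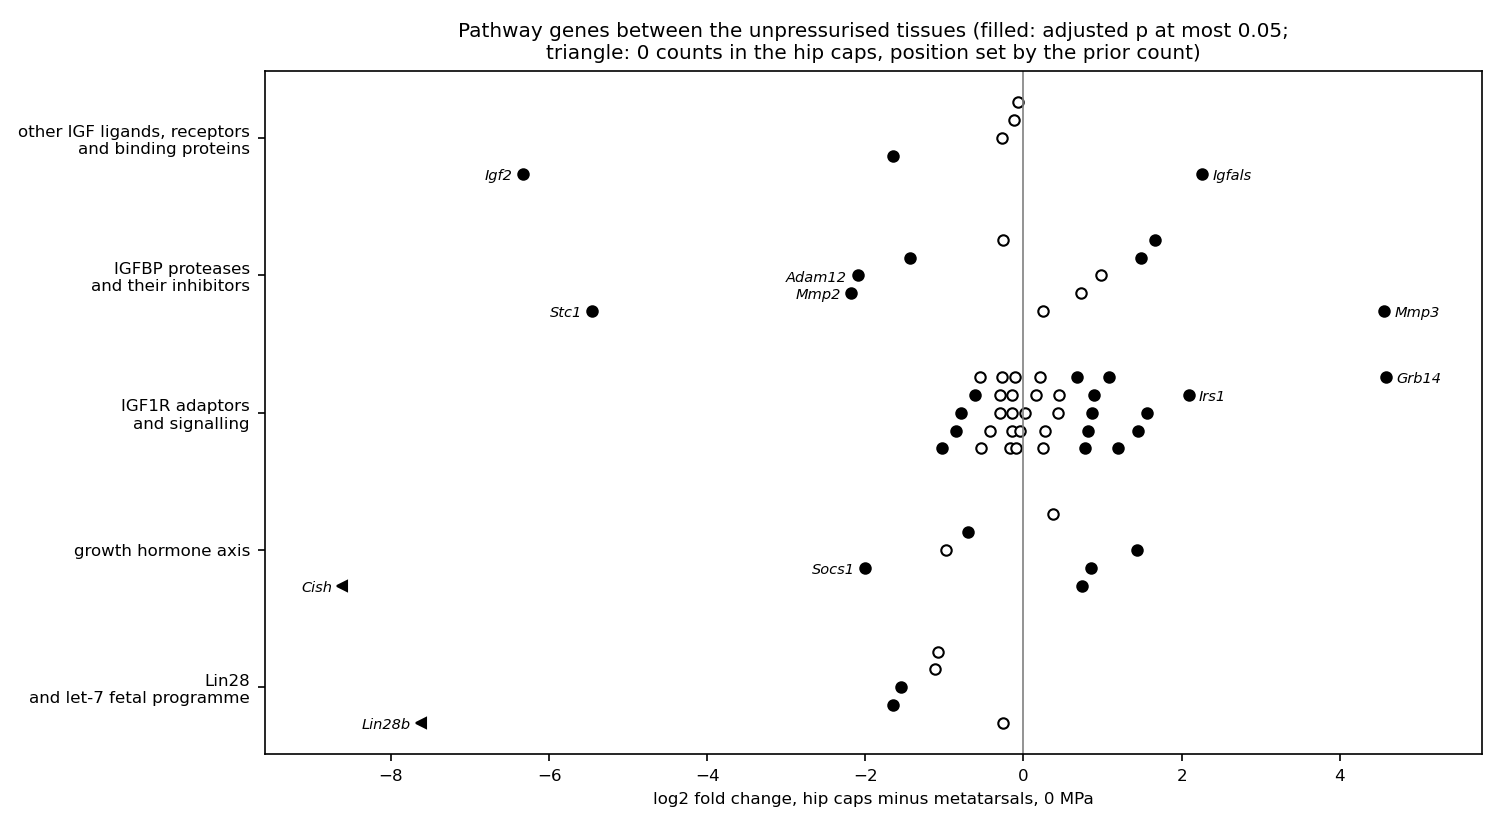
Log2 fold change (hip caps minus metatarsals, 0 MPa) of each tested gene of the 5 pathway lists, filled where the adjusted p was at most 0.05, with triangles for genes with 0 counts in hip cap controls. Igf2 and Stc1 lie farthest left among the circles, at -6.33 and -5.45, and Grb14 and Mmp3 farthest right, at 4.59 and 4.56.

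The genes most like each of the 10 across the 22 libraries, by Pearson correlation of log2 CPM, are given as a description. The libraries share tissue and batch, so these values mostly follow the difference between the tissues. Igf1 was most like the connexin gene Gjc1 (r = 0.992) and Cd55 (0.99), Igfbp2 like Crabp2 (0.992) and Slitrk5 (0.992), and Igfbp3 like Postn (0.985) and Jag1 (0.984). Igfbp4 was most like Tead2 (0.99) and Sema3f (0.987), and Igfbp5 like Tmem26 (0.99) and Pcdh18 (0.989). Igfbp6 was most like Angptl7 (0.945) and Cilp (0.935), and Igfbp7 like Csmd1 (0.985) and Slc29a1 (0.981). Igf2bp1 was most like Mex3a (0.994) and Dlk1 (0.993), and Igf2bp3 like Fgf10 (0.986) and Bnc2 (0.984). Igf1r, the gene without a difference that passed, had the lowest values, with Zfp395 (0.885) and Parm1 (0.833).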

How the data were processed

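RNA of hip caps and metatarsals was measured in 24 libraries of 6 groups. Per the labels and the study's methods, RNA was partly degraded, ribosomal RNA was removed, reads were trimmed with Trim Galore 0.6.5 and quantified with kallisto, and the authors summed the estimated counts per gene with tximport. The deposited expected counts of 52178 genes are not normalized, and 0 columns were of other samples. Genes were named from GENCODE M21, which matched 48845 identifiers.

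Counts were rounded and analysed in R 4.3.3 with edgeR 4.0.16 and its quasi-likelihood test: filterByExpr over groups, TMM, robust fit, and terms for group, sequencing run and library type over the study's 22 libraries (without hip cap control 4 and hip cap 2 at 50 MPa, scaled here from all 24). The fit was checked on simulated data. P-values were two-sided and adjusted by the Benjamini-Hochberg method over 21283 genes, with a threshold of 0.05. A standard error is the log2 fold change over the root of F, and none was taken within 0.01 of 0. Log2 CPM had a prior count of 2. Libraries within a group are separate samples, and the study gives 1 mouse per hip cap library. Totals of 4185557 to 25104484 counts set the precision, and counting intervals cover counting error only.

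The members and lists were chosen with earlier results of these data known. Named were all 10 members, up to 3 highest and 3 lowest called genes per pathway list between controls, those called under pressure, and the 2 genes most like each member (mean of at least 1 CPM, no predicted genes). Other genes were named after their values were seen. Some genes that met this rule are not reported here. Alternatives included DESeq2 1.42.0, other normalizations, filters, batch terms and libraries, and leaving out each library. 1 version of the fit (library sizes before the filter, dispersions not robust) was chosen after both had been seen, and the other is among the alternatives.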

Additional observations from a re-analysis of the deposited data

Results flagged for a closer look

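In each labelled group of 4 libraries, all 24 included, the highest or lowest value of each gene was compared with its nearest neighbour by Dixon's ratio. This marked 11 of 60 combinations, where 1 in 20 would give 3 if the combinations were independent. The genes share the same libraries, and the study had already left out 2 of these as outliers, so no excess over chance can be read from this. Of the 11, 4 were the hip cap control that the study left out. It was high for Igfbp3 (28.2 CPM), Igfbp4 (158 CPM), Igfbp5 (201 CPM) and Igfbp7 (438 CPM). The hip cap library left out at 50 MPa was high for Igfbp2 (4.54 CPM) and Igf2bp1 (15.9 CPM). Among fitted libraries, hip cap replicate 3 at 5 MPa was high for Igfbp5 (153 CPM), control metatarsal replicate 2 for Igfbp2 (33.5 CPM), metatarsal replicate 2 at 5 MPa for Igf1r (309 CPM) and metatarsal replicate 1 at 50 MPa for Igf1r (266 CPM). The hip cap control replicate 1 was marked for Igfbp2 at 0.271 CPM, a single count beside 3 libraries at 0. In edgeR no gene of the 10 passed the test of a different response to pressure in the tissues, while DESeq2 called Igf1 and Igf2bp3 at 50 MPa.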

How the results depend on the processing

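Between the tissues, the number of genes called was 9 at 0 MPa and ran from 6 to 9 over the other settings and from 8 to 9 without each library. At 5 MPa it ran from 6 to 10 around 9, and from 8 to 10 in the 8 libraries of one batch, with 9 without each library in both. At 50 MPa it was 8, fell to 5 where at least 10 counts were required in every library, since 3 of the 10 genes did not pass that filter, and ran from 5 to 8 without each library. In hip caps at 5 MPa the count of 0 became 2 without batch terms, 3 with library type alone, 1 with the replicate block and 1 with DESeq2, and was 0 without each library. In hip caps at 50 MPa the count of 2 became 0 with library sizes alone, all 24 libraries, hip caps alone or run 1 hip caps alone, and 1 without a filter, with at least 10 counts or with library type alone, and 3 with DESeq2, which called Igfbp3 too, and ran from 0 to 3 without each library. Without batch terms or with the run term alone it was 2, but of Igfbp3 and Igf2bp3 in place of Igf1 and Igf2bp3. It was 0 without control hip cap 3, hip cap 3 at 50 MPa, control metatarsal 1 or metatarsal 4 at 50 MPa. The number of all genes called there was 1101 and ran from 0 to 2488. The interaction at 50 MPa had 0, and 1 with at least 10 counts, 1 with the replicate block, 2 with DESeq2 and 0 to 2 without each library. The causes of these changes were not tested apart from the filter. In metatarsals and in the interaction at 5 MPa the count was 0 in every setting run. The version of the fit with library sizes after the filter and robust dispersions, compared after seeing the data, gave the same member counts in all 9 comparisons. No called value of the 10 genes changed sign in any setting run.

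Pairing of the libraries by replicate number was not evident, but residual correlations cannot exclude it. Those of 50 pairs of equal number ran from -0.27 to 0.31 (median 0.03), beside a median of -0.004 for pairs of different number. Of 22 libraries, 8 were most like one of their own number, and the count to be had by chance was not computed. Depth limits Igfbp2 and Igf2bp1 in hip caps, where single libraries had 0 and 1 counts.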
